A study of Mus musculus with 43 samples.

Results

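Messenger RNA of 58 enzymes that break down amino acids was measured along the proximal tubule of female mice, in its 3 successive segments S1, S2 and S3. The 58 genes were chosen by name and belong to 12 groups: tyrosine and phenylalanine, proline and ornithine, branched-chain amino acids, propionate, lysine, tryptophan, D-amino acids, glycine and methyl groups, sulfur amino acids, glyoxylate, glutamate aminotransferases and urea-related enzymes. All 58 were found among the 54532 genes of the deposited table. The tubules came from C57BL/6 mice aged 6 to 8 weeks and were dissected by hand, with 2 to 5 tubules in each sample. There were 6 female libraries from S1, 6 from S2 and 7 from S3, all from untreated animals as far as the labels say. The titles carry 2 different numbers for S1, 3 for S2 and 4 for S3, which the labels do not explain. S1 and S2 shared no number, while S3 shared numbers with both. Whether a number stands for an animal is not stated.

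Each gene has 1 value per segment in the table, as TPM, a level per transcript length scaled to a fixed total, which can be set side by side between genes. No difference below has a check against replicates, p-values cannot be had, and how deeply each gene was read is unknown. Differences are on the log2(TPM + 1) scale, with a call of higher or lower at a difference of 1 or more, that is 2-fold. The 5 S1 markers, 3 S2 markers and 4 S3 markers looked at were each highest in the segment they mark, though neighbours were not always far apart. Slc5a2, the glucose cotransporter of S1, was at 2808 TPM in S1, with 1.3 in S2 and 0.5 in S3, and Slc7a12, a transporter typical of S3, was at 2.5 (S1), 1613 (S2) and 3048 TPM (S3). Of the S3 markers, only Akr1c18 was 2-fold apart between S2 and S3, and the S2 marker Slc22a8, an organic anion transporter, separated S2 from S3 but hardly from S1 (S1 297, S2 349, S3 0.7 TPM). Other cell types were present unevenly. The 8 endothelial markers were all highest in S2 and summed to 58.9 TPM in S1, with 581 in S2 and 232 in S3. Of 8 immune markers, 7 were highest in S2, with sums over the 8 of 56.3 (S1), 294 (S2) and 95.3 TPM (S3). Cd74 held most of the immune sum in S1 and S2 (S1 50.1, S2 193, S3 37.8 TPM). Csf1r, the exception, was highest in S3 (S1 0.5, S2 32, S3 46.9 TPM). The podocyte marker Podxl was at 1.4 (S1), 13.4 (S2) and 3.1 TPM (S3), while Nphs1, which defines that cell, did not exceed 0.2 TPM. The collecting duct marker Aqp3 was at 28.3 (S1), 5.2 (S2) and 0.1 TPM (S3), while Aqp2 did not exceed 0.5 TPM. In pieces of tissue, fewer cells of a type and less RNA per cell cannot be told apart.

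The proximal tubule takes back nearly all filtered amino acids, and its cells, rich in mitochondria, also burn or convert part of them. Breakdown usually starts with removal of the amino group by an aminotransferase, a dehydrogenase or an oxidase, after which the carbon skeleton is cut down to intermediates of the citrate cycle or to acetyl-CoA. The kidney is also known for making arginine from citrulline, for cleaving glycine and for oxidising proline and hydroxyproline.

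Most of these enzymes were well expressed. Of the 58 genes, 54 reached 10 TPM and 36 reached 100 TPM in at least 1 segment. Tat, Pycr1 and Agxt stayed under 1 TPM throughout, and the 55 others passed the filter of 1 TPM in at least 1 segment that left 16053 genes in the comparison. The median TPM of the 58 was 80.6 (S1), 89.7 (S2) and 67.2 (S3), and together they made up 0.984% (S1), 0.838% (S2) and 0.821% (S3) of all TPM. These totals hide a change of content, since the highest and the lowest segment were 2-fold or more apart for 30 of the 58 genes. Over all genes compared that share was 33.3%. Of the 30, the highest value was in S1 for 16, in S2 for 6 and in S3 for 8. Such genes were unevenly spread over the groups: they were all 4 glutamate aminotransferases, all 3 urea-related genes, 5 of 6 tryptophan and 3 of 4 sulfur genes, but 5 of 13 branched-chain genes and none of the 4 propionate or 2 D-amino acid genes. Summed TPM was highest in S1 for urea-related genes (S1 944, S2 309, S3 359 TPM), proline and ornithine genes (S1 1101, S2 459, S3 387 TPM) and aminotransferases (S1 367, S2 151, S3 106 TPM). It was lowest there for sulfur genes (S1 171, S2 531, S3 709 TPM). By less than 2-fold, it was also highest in S1 for tyrosine and phenylalanine, propionate and D-amino acid genes. Also by less than 2-fold, it was lowest in S1 for branched-chain, glyoxylate, and glycine and methyl group genes.

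**Figure D1:**
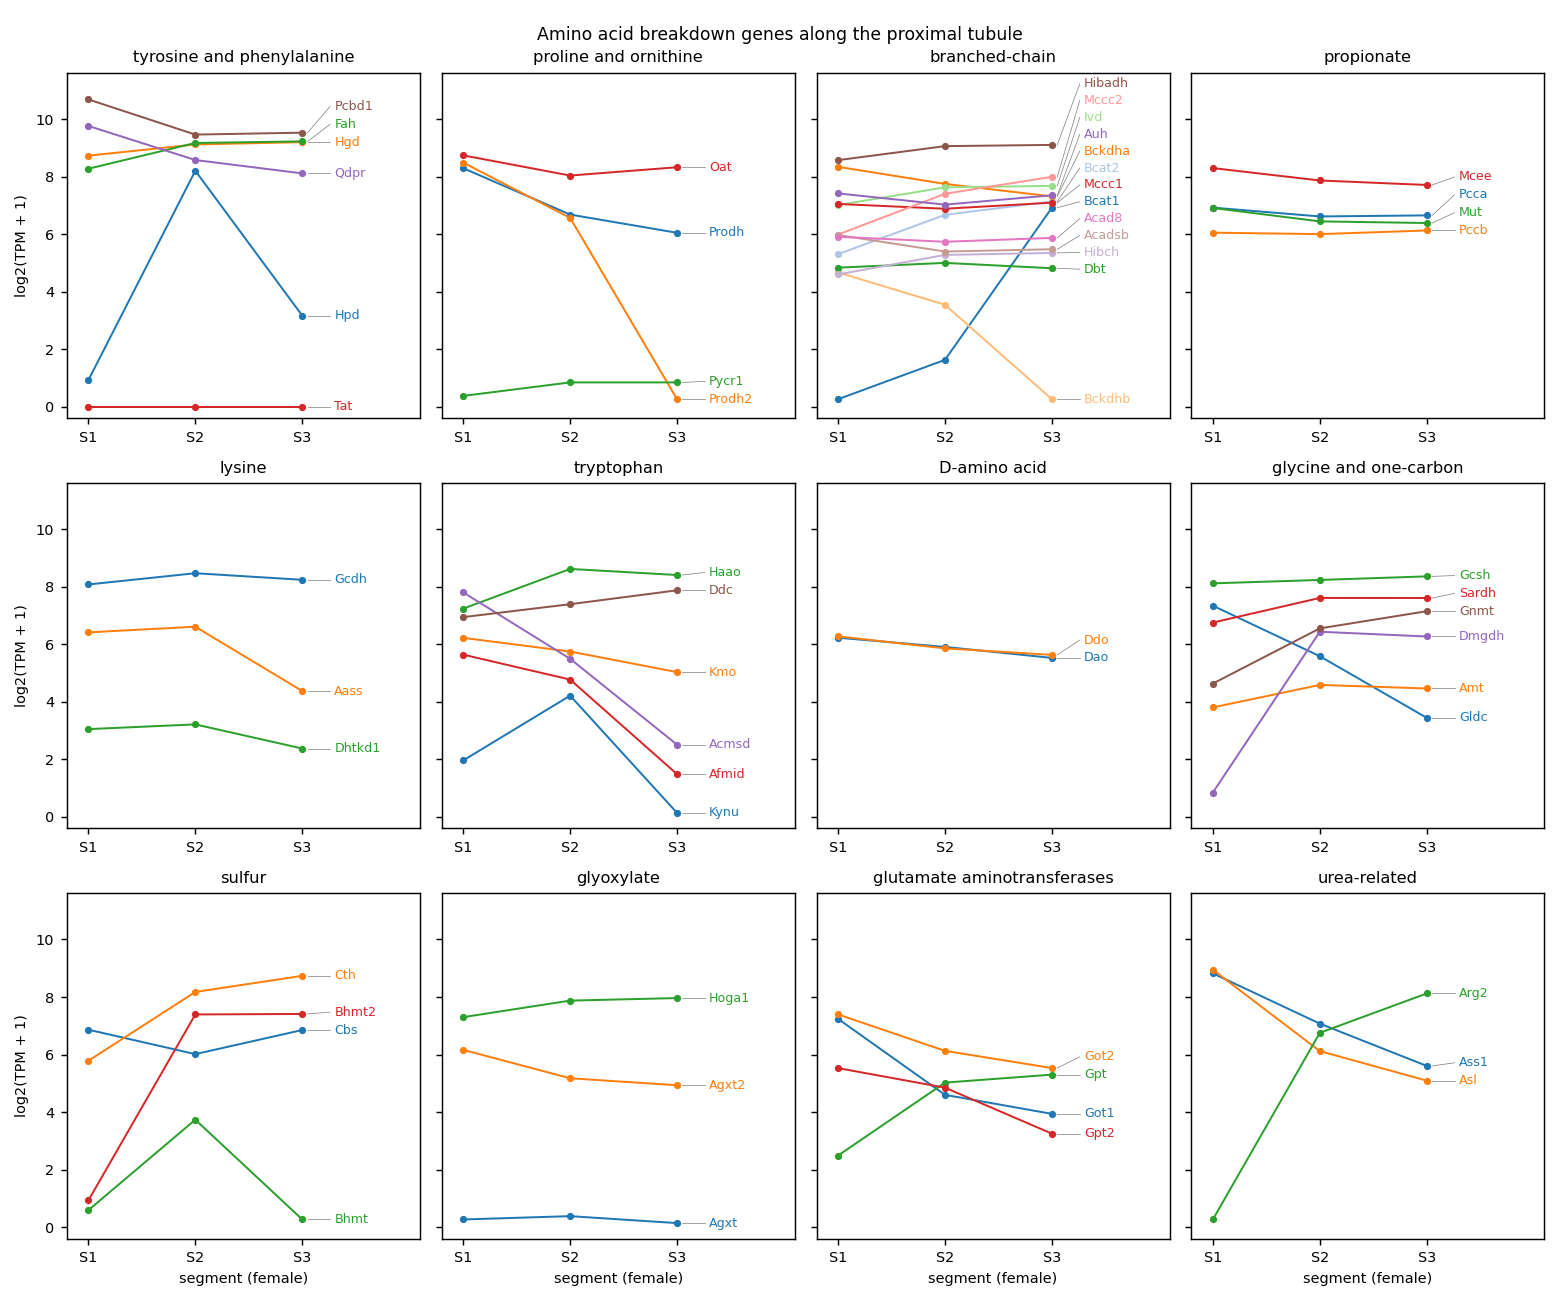
Level of each of the 58 genes as log2(TPM + 1), vertical axis, in female S1, S2 and S3, horizontal axis, with 1 panel per group of enzymes and 1 line per gene. Lines of propionate and D-amino acid enzymes are nearly flat, while urea-related, sulfur and proline lines cross or diverge.

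Of the 58 genes, 11 passed the threshold as higher in S1 than in S2, which 6.62% of all genes did, and 13 as lower, which 17.7% did. For S1 against S3 the counts were 18 higher (10.5% of all genes) and 11 lower (13.1%). For S2 against S3 they were 12 higher (8.74%) and 2 lower (2.24%). The share of genes higher in the more proximal segment thus exceeded the background in each contrast, while the shares of lower genes lay nearer to it. The median difference of the 58 genes was close to 0 in all 3 contrasts, at -0.06 (S1 minus S2), 0.05 (S1 minus S3) and 0.09 (S2 minus S3), against -0.18, -0.01 and 0.12 in the same order over all genes compared. These enzymes are abundant, so the counts were also taken over genes of at least 20 TPM in 1 segment. Of 52 such members, 11 were higher and 11 lower for S1 against S2 (all such genes 9.77% and 13.3%), 17 and 11 for S1 against S3 (13.8% and 15.5%), and 10 and 2 for S2 against S3 (6.31% and 2.00%). The contrasts share columns and are not independent of each other.

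**Figure D2:**
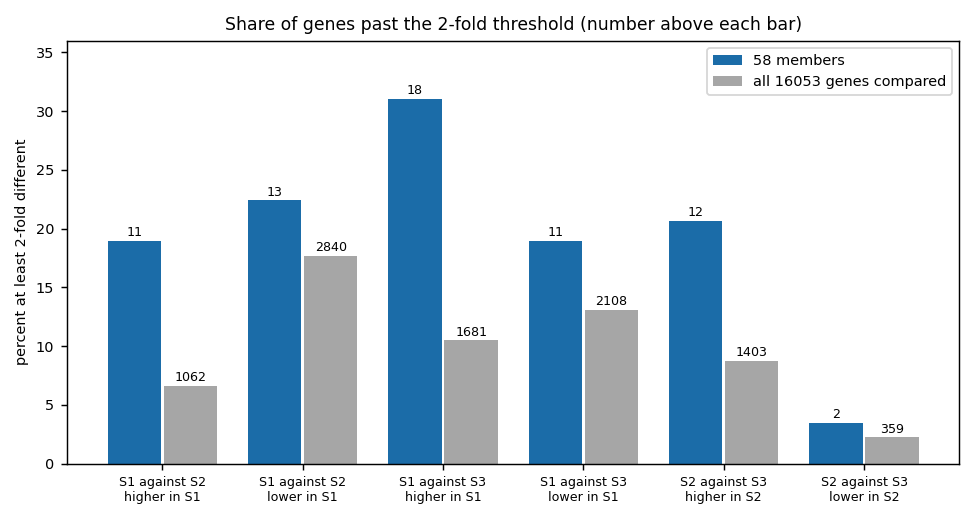
Percent of genes at least 2-fold higher or lower, vertical axis, in each of the 3 contrasts, horizontal axis, for the 58 members (blue) and for all 16053 genes compared (grey), with the number of genes above each bar. The member bar is above the grey bar in each pair, most of all for genes higher in S1 than in S3, with 18 of 58 against 10.5%.

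For 37 of the 58 genes the S2 level lay between the S1 and S3 levels or equalled one of them, for 12 it was the highest and for 9 the lowest. Over all genes the S2 level was between in 48.3%, highest in 36.4% and lowest in 15.3%. Set against both other segments at once, with the 2-fold threshold, 11 members stood above in S1 (6.03% of all genes): Qdpr, Pcbd1, Prodh, Prodh2, Bckdhb, Acmsd, Gldc, Got1, Got2, Ass1 and Asl. As many stood below in S1 (9.38% of all genes): Hpd, Bcat1, Bcat2, Mccc2, Haao, Dmgdh, Gnmt, Cth, Bhmt2, Gpt and Arg2. In S2, 3 stood above, Hpd, Kynu and Bhmt (5.22% of all genes), and 0 below (0.162%). In S3, 2 stood above, Bcat1 and Arg2 (2.00% of all genes), and 10 below (2.84%): Prodh2, Bckdhb, Aass, Kynu, Afmid, Acmsd, Gldc, Gpt2, Ass1 and Asl. Near the threshold, Agxt2 just missed the count for S1 against S2 (70.6 and 35.1 TPM, difference 0.99), and Bckdha just made it for S1 against S3 (324 and 158 TPM, difference 1.03). A few calls near it were lost under another scaling. Median-of-ratios scaling put Bckdha (S1 minus S3) and Asl (S2 minus S3) at 0.97 each, and quantile normalization put Pcbd1 (S1 minus S2) at 0.96.

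**Figure D3:**
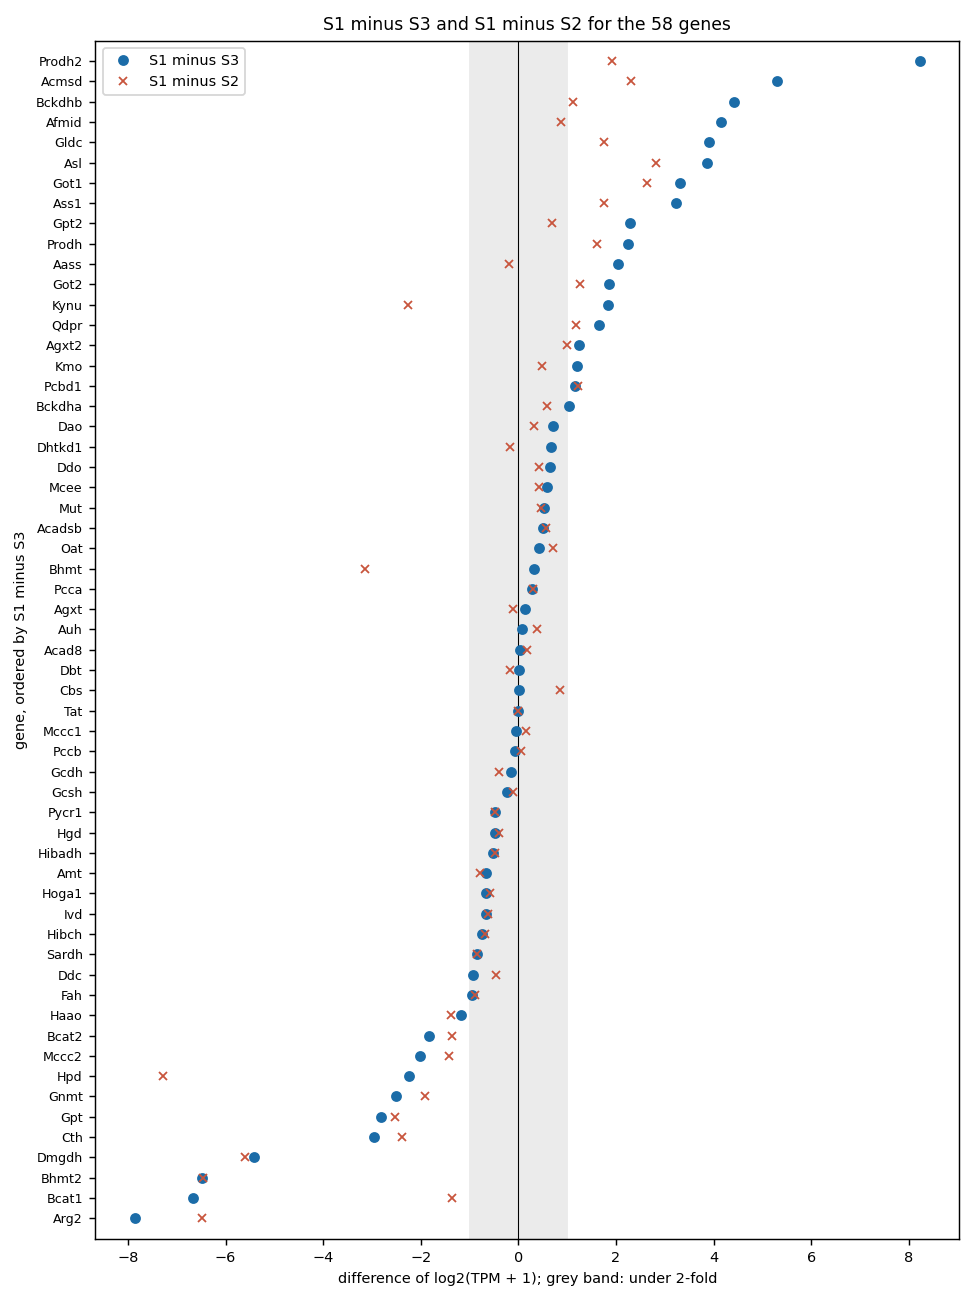
Difference of log2(TPM + 1), horizontal axis, for each of the 58 genes, ordered down the page from the highest to the lowest S1 minus S3 (blue circles), with S1 minus S2 as red crosses and differences under 2-fold in the grey band. Prodh2 is at the top with 8.23 and Arg2 at the bottom with -7.86, while Hpd, Kynu and Bhmt have crosses far to the left of their circles because their levels peaked in S2.

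Phenylalanine and tyrosine breakdown was divided by step. Qdpr and Pcbd1 regenerate tetrahydrobiopterin, a cofactor of aromatic amino acid hydroxylases. Qdpr was at 870 TPM in S1, with 382 in S2 and 277 in S3, and Pcbd1 at 1650 (S1), 707 (S2) and 740 TPM (S3), the highest level of any of the 58 genes. Both were highest in S1, by 2.28-fold and 2.34-fold over S2. Tat, the tyrosine aminotransferase of liver, was listed at 0 in all segments. Hpd, the dioxygenase that acts on the keto acid of tyrosine, was at 0.9 TPM in S1, with 294.7 in S2 and 8.0 in S3, the steepest peak in S2 among the 58 genes. Its S2 level was 36.8-fold the S3 level. The enzymes after it, Hgd and Fah, were high everywhere, with Hgd at 424 (S1), 557 (S2) and 588 TPM (S3) and Fah at 310 (S1), 577 (S2) and 599 TPM (S3). Among other genes of this pathway, Mif, which has tautomerase activity, was also highest in S1 (S1 2157, S2 713, S3 362 TPM), while Gstz1, Pts and Gch1 differed less than 2-fold.

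Genes of proline oxidation had their highest levels at the start of the tubule. Prodh, proline dehydrogenase, was at 314 TPM in S1, with 102 in S2 and 65.3 in S3. Prodh2, which acts on hydroxyproline, was at 359 (S1), 93.9 (S2) and 0.2 TPM (S3). The 2 genes had nearly equal levels in S1 and S2, with Prodh2 at 1.15 and 0.921 times Prodh, and in S3 Prodh alone of the pair exceeded 1 TPM. Aldh4a1, the dehydrogenase that both pathways use next, was at 359 (S1), 168 (S2) and 148 TPM (S3), again highest in S1. Oat, ornithine aminotransferase, differed less than 2-fold (S1 428, S2 263, S3 321 TPM). For proline synthesis, Pycr1 did not exceed 0.8 TPM and Aldh18a1 did not exceed 1.2 TPM, while the related reductase Pycrl was at 73.4 (S1), 58.3 (S2) and 60.9 TPM (S3).

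Hydroxyproline carbon is passed on to glyoxylate by Hoga1, an aldolase of mitochondria, which did not follow Prodh2. Hoga1 was at 157 TPM in S1, with 234 in S2 and 249 in S3. Agxt2, a mitochondrial aminotransferase for glyoxylate, was at 70.6 (S1), 35.1 (S2) and 29.5 TPM (S3), 2.39-fold higher in S1 than in S3. Grhpr, which reduces glyoxylate, was at 378 (S1), 285 (S2) and 289 TPM (S3).

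Branched-chain breakdown differed between segments mostly at its entry steps. Bcat1, the cytosolic aminotransferase, was at 0.2 TPM in S1, with 2.1 in S2 and 120.4 in S3. Bcat2, its mitochondrial counterpart, was at 38.6 (S1), 101.2 (S2) and 140 TPM (S3). The level of Bcat2 was 48.2 times that of Bcat1 in S2 but 1.16 times in S3. The next step, the branched-chain keto acid dehydrogenase, is a complex whose subunits did not move alike. Bckdha, the alpha subunit of its first component, was at 324 (S1), 215 (S2) and 158 TPM (S3), and Dbt, its transacylase core, at 27.6 (S1), 31.1 (S2) and 27.2 TPM (S3). Bckdhb, the beta subunit that pairs with Bckdha, was at 24.5 TPM in S1, with 10.7 in S2 and 0.2 in S3. Bckdha thus exceeded Bckdhb by 13.2-fold in S1, and in S3 Bckdhb was under 1 TPM. Among the regulators of the complex, the kinase Bckdk differed little (S1 119, S2 89.1, S3 102 TPM), while the phosphatase Ppm1k was lower in S1 (S1 2.4, S2 14.1, S3 11.8 TPM).

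Further down, Mccc2 was the only branched-chain member past the threshold. Ivd, isovaleryl-CoA dehydrogenase, was at 128 (S1), 197 (S2) and 204 TPM (S3). Mccc2, the beta subunit of methylcrotonyl-CoA carboxylase, was at 62.5 TPM in S1, with 169 in S2 and 255 in S3, 4.07-fold higher in S3 than in S1. Its partner Mccc1, the alpha subunit, was nearly constant (S1 132, S2 117, S3 136 TPM), so that the ratio of Mccc1 to Mccc2 was 2.11 in S1 and 0.534 in S3. Auh, the hydratase of the leucine route, Acadsb and Acad8, dehydrogenases of the isoleucine and valine routes, and Hibch and Hibadh, of the valine route, each differed less than 2-fold. Hibadh was the most abundant of these at 381 (S1), 534 (S2) and 551 TPM (S3), and the 4 others lay between 23.3 and 170.3 TPM. The 4 propionate enzymes, which take the end product of valine and isoleucine into the citrate cycle, were the flattest group. Pcca and Pccb, subunits of propionyl-CoA carboxylase, were at 121 (S1), 97.3 (S2) and 99.9 TPM (S3) and at 65.5 (S1), 63.2 (S2) and 69.1 TPM (S3). Mut, the mutase that needs vitamin B12, was at 120 (S1), 86.3 (S2) and 82.9 TPM (S3), and Mcee, the epimerase, at 314 (S1), 233 (S2) and 209 TPM (S3). Of 9 other branched-chain genes, 2 differed at least 2-fold between segments, Ppm1k and Abat (S1 241, S2 121, S3 106 TPM), and of 3 genes of vitamin B12 handling none did.

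**Figure D4:**
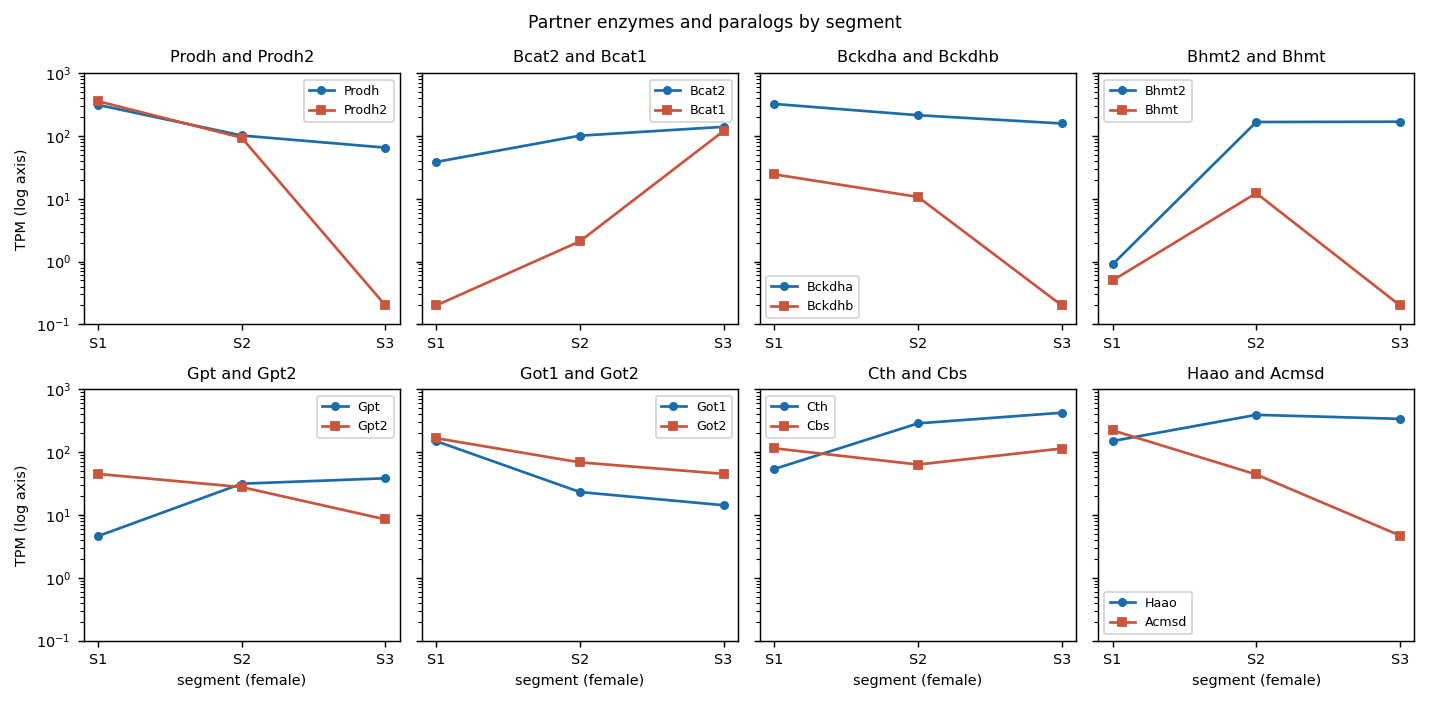
TPM on a log axis in female S1, S2 and S3 for 8 pairs of paralogs, complex partners or consecutive enzymes. Prodh2 and Bckdhb are at 0.2 TPM in S3 while Prodh and Bckdha stay above 60 TPM, and Bcat1 reaches the level of Bcat2 in S3.

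In lysine breakdown the entry enzyme was low in S3. Aass, the bifunctional first enzyme of the saccharopine route, was at 84.5 TPM in S1, with 97.0 in S2 and 19.8 in S3, 4.90-fold higher in S2 than in S3. Gcdh, glutaryl-CoA dehydrogenase, differed little (S1 270, S2 355, S3 303 TPM), and Dhtkd1, of the preceding oxoadipate dehydrogenase complex, was low (S1 7.3, S2 8.3, S3 4.2 TPM). The enzymes between Aass and Dhtkd1 went opposite ways. Aldh7a1 was at 455 (S1), 134 (S2) and 96.3 TPM (S3), and Aadat, which transaminates aminoadipate and also kynurenine, at 30.2 TPM in S1, with 4049 in S2 and 8025 in S3. Aadat was 266-fold higher in S3 than in S1.

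The kynurenine pathway of tryptophan had enzymes that were highest in different segments. The opening dioxygenases were scarce: Tdo2 did not exceed 0.3 TPM and Ido1 0.2 TPM, and Ido2 was at 0.1 TPM in S1, with 12.6 in S2 and 6.9 in S3. Afmid, which frees kynurenine from its formyl group, was at 49.0 TPM in S1, with 26.4 in S2 and 1.8 in S3; it overlaps Tk1 by 585 bases in the annotation, and reads of the pair may not be told apart without strand. Kmo, which hydroxylates kynurenine, was at 73.9 (S1), 52.9 (S2) and 31.8 TPM (S3). Kynu, which cleaves off alanine, peaked in S2 at 17.6 TPM, with 2.9 in S1 and 0.1 in S3. Haao, which opens the ring and yields the precursor of quinolinate, was lower in S1 (151 TPM) than in S2 (394 TPM) and S3 (340 TPM). Acmsd, which diverts that precursor away from quinolinate and so from NAD synthesis, ran the other way, at 223 TPM in S1, with 44.2 in S2 and 4.7 in S3. The ratio of Haao to Acmsd was therefore 0.675 in S1, 8.90 in S2 and 72.3 in S3. Qprt, which turns quinolinate into an NAD precursor, differed little (S1 87.7, S2 106, S3 128 TPM). Of the aminotransferases that make kynurenate, Kyat3 was at 13.8 (S1), 291 (S2) and 603 TPM (S3), ordered like Aadat, whereas Kyat1 was nearly level (S1 33.5, S2 28.4, S3 34.3 TPM). Ddc, which makes dopamine from L-DOPA, was at 123 (S1), 168 (S2) and 235 TPM (S3), less than 2-fold apart.

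Kynu, Hpd and Bhmt, the 3 genes that stood above both neighbours in S2, were highest where endothelial, immune and stromal markers were also highest. Markers of the S2 tubule itself peaked there too, namely Slc22a6 (S1 6, S2 217, S3 1 TPM) and Slc13a3 (S1 2.2, S2 227, S3 1.1 TPM). The S2 marker Slc22a8 was only slightly above its S1 level. The 7 stromal and mural markers, all highest in S2, summed to 2.3 TPM in S1, with 19.6 in S2 and 2.2 in S3. The part of these cells in the 3 levels was not tested. Of 5 markers of thick limb and distal tubule, Umod was at 0.2 TPM in S1, with 21.1 in S2 and 29.1 in S3. It carried most of their summed level in S2 and S3. Slc12a1 was at 0.4 (S1), 0.3 (S2) and 1 TPM (S3), and Slc12a3 at 0.7 (S1), 2 (S2) and 3 TPM (S3). Calb1 did not exceed 0.6 TPM and Kcnj1 0.1 TPM. Aqp3 carried most of the summed level of 6 collecting duct markers in S1 and S2. The part of such cells in genes low or high in S1 was not tested either.

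Of the 6 members for glycine and methyl groups, Gldc was highest in S1, while Dmgdh and Gnmt were lower in S1 than in S2 and S3, and the 3 others did not pass the threshold. Gldc, the decarboxylase of the glycine cleavage system, was at 162 TPM in S1, with 47.1 in S2 and 9.9 in S3, 16.3-fold higher in S1 than in S3. Its partners did not follow: Gcsh, the lipoyl carrier protein, was at 278 (S1), 302 (S2) and 329 TPM (S3), and Amt, the aminomethyltransferase, at 13.0 (S1), 23.1 (S2) and 21.1 TPM (S3). The ratio of Gcsh to Gldc was 1.72 in S1, 6.40 in S2 and 33.2 in S3. Shmt2, the mitochondrial serine hydroxymethyltransferase, was at 156 (S1), 151 (S2) and 65.8 TPM (S3), and Gcat, which makes glycine in threonine breakdown, at 184 (S1), 40.4 (S2) and 16.9 TPM (S3). Of the enzymes named here that make or use sarcosine, all but Pipox had their lowest level in S1. Gnmt, which methylates glycine to sarcosine, was at 23.9 (S1), 93.1 (S2) and 141 TPM (S3), and Sardh, which takes the methyl group off again, at 107 (S1), 195 (S2) and 195 TPM (S3). Pipox, a peroxisomal sarcosine oxidase, was at 312 (S1), 243 (S2) and 223 TPM (S3). Dmgdh, which turns dimethylglycine into sarcosine, was at 0.8 TPM in S1, with 85.8 in S2 and 76.4 in S3.

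Dimethylglycine arises when betaine gives a methyl group to homocysteine, and the enzymes of that step and of the one before Sardh are neighbours in the genome. RefSeq places them on GRCm38.p6, which corresponds to mm10, where Bhmt (chr13:93616891-93637758), Bhmt2 (chr13:93656097-93674302) and Dmgdh (chr13:93674436-93752823) lie side by side. No other pair of the 58 genes lay within 200 kb of each other. Bhmt2 is read from the minus strand and Dmgdh from the plus strand, away from each other, with 133 bases between their starts. Both were nearly absent in S1 and level between S2 and S3. Bhmt2, which methylates homocysteine from S-methylmethionine, was at 0.9 TPM in S1, with 167 in S2 and 169 in S3. Bhmt, the betaine-dependent paralog with a start of its own, was at 0.5 (S1), 12.3 (S2) and 0.2 TPM (S3), peaking in S2. The RefSeq promoter windows, 250 bases before to 50 after each start, are shown 5′ to 3′ on the strand of the gene because 2 of them are largely the same DNA. Capitals mark the 233 bases that the windows of Dmgdh (chr13:93674186-93674485, plus strand) and Bhmt2 (chr13:93674253-93674552, minus strand) share, read from opposite strands; in Bhmt (chr13:93637709-93638008, minus strand) they mark the only match to TGACCTTTG, a nuclear receptor site with its flank, on either strand.
Dmgdh: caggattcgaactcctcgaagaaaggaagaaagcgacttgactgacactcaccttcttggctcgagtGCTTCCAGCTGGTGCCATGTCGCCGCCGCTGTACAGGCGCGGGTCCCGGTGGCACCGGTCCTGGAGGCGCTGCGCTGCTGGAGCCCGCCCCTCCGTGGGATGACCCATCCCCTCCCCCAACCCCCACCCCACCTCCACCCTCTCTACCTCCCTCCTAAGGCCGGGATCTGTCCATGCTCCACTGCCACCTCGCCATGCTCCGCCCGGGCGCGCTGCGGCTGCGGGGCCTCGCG
Bhmt2: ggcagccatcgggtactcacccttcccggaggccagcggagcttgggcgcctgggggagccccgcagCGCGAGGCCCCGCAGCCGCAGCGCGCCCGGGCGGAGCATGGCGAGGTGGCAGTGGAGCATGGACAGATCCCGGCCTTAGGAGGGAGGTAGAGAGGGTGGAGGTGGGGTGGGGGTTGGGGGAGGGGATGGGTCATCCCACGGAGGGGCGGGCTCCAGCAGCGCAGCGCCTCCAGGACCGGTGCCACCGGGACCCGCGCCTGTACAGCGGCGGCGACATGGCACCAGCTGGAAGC
Bhmt: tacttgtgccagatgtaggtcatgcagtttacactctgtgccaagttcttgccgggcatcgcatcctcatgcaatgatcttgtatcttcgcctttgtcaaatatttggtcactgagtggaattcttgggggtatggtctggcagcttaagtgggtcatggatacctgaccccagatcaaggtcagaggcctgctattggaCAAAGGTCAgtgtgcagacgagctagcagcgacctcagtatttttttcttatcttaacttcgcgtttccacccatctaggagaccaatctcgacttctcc
The windows hold 68.0% G and C in Dmgdh, 73.7% in Bhmt2 and 48.0% in Bhmt, against a median of 52.7% over the 32851 promoter windows of the table. TGACCTTTG was found in 0.478% of all windows.

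Of the 4 sulfur members, 3 were lower in S1 than in S2 (Cth, Bhmt and Bhmt2) and 2 lower than in S3 (Cth and Bhmt2), and Cbs passed the threshold in no contrast. Cth, cystathionine gamma-lyase, which releases cysteine, was at 54.0 TPM in S1, with 288 in S2 and 426 in S3, 7.88-fold higher in S3 than in S1. Cbs, which makes the cystathionine it acts on, was at 115 (S1), 63.6 (S2) and 115 TPM (S3), with its lowest value in S2. Cth was therefore at 0.468 times Cbs in S1 but at 4.53 times in S2 and 3.72 times in S3. Of 10 other genes of the methionine and cysteine routes, 5 were lower and 3 higher in S1 against S2, and 5 lower and 2 higher in S1 against S3, by the same threshold. Lower in S1 in both were Mat2a, the enzyme that makes S-adenosylmethionine (S1 162, S2 664, S3 1087 TPM), Ahcy, which splits S-adenosylhomocysteine (S1 24.6, S2 56.5, S3 56.5 TPM), Mpst (S1 5.8, S2 18.5, S3 37.7 TPM), and the taurine route. In that route Cdo1, cysteine dioxygenase, was at 1.0 (S1), 121 (S2) and 289 TPM (S3) and Csad, the decarboxylase after it, at 101 (S1), 462 (S2) and 705 TPM (S3). Higher in S1 in both were the enzymes of sulfite and sulfide oxidation, Suox (S1 85.3, S2 25.9, S3 6.2 TPM) and Ethe1 (S1 237, S2 51.9, S3 34.0 TPM), and Mtr, methionine synthase, was higher against S2 (S1 6.6, S2 2.6, S3 4.0 TPM).

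Urea-related genes formed opposite gradients. Ass1 and Asl make arginine from citrulline. Ass1 was at 452 TPM in S1, with 134 in S2 and 47.6 in S3, and Asl at 492 (S1), 68.5 (S2) and 33.1 TPM (S3). Asl was 14.9-fold and Ass1 9.49-fold higher in S1 than in S3. Arg2, the mitochondrial arginase that splits arginine into urea and ornithine, was at 0.2 TPM in S1, with 107 in S2 and 278 in S3. The enzymes that make and those that split arginine thus had their highest levels at opposite ends, with S2 between in all 3. Arg2 overlaps Vti1b by 285 bases in the annotation, and the library kit is not stated to mark strand; Vti1b was at 134 (S1), 115 (S2) and 127 TPM (S3), and its part in the Arg2 level was not tested.

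The glutamate aminotransferases also differed by segment. Got1, the cytosolic aspartate aminotransferase, was at 150 TPM in S1, with 23.2 in S2 and 14.3 in S3, and the mitochondrial Got2 at 167 (S1), 68.9 (S2) and 45.2 TPM (S3). Both were highest in S1, by 10.5-fold and 3.70-fold over S3. The alanine aminotransferases crossed. Gpt, the cytosolic form, was at 4.6 (S1), 31.5 (S2) and 38.4 TPM (S3) and Gpt2, the mitochondrial form, at 45.1 (S1), 27.8 (S2) and 8.5 TPM (S3). Gpt2 was 9.80 times Gpt in S1, the 2 were alike in S2, and Gpt was 4.52 times Gpt2 in S3. The D-amino acid oxidases Dao (S1 74.2, S2 59.2, S3 45.2 TPM) and Ddo (S1 76.7, S2 57.1, S3 48.7 TPM), which act on neutral and on acidic D-amino acids, had nearly the same level in each segment and differed less than 2-fold between segments.

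Over the 67 measured companion genes of these pathways, the 2-fold counts were 10 higher and 14 lower for S1 against S2 (all genes 6.62% and 17.7%), 12 and 14 for S1 against S3 (10.5% and 13.1%), and 4 and 2 for S2 against S3 (8.74% and 2.24%). The 14 lower for S1 against S2 and both counts of S2 against S3 lay near those shares. The histidine, serine and threonine genes included Uroc1, urocanase, listed at 0 in S1 with 47.4 TPM in S2 and 52.5 in S3, while Hal, the enzyme before it, did not exceed 0.1 TPM. Amdhd1, the enzyme after urocanase, was at 0.2 (S1), 2.9 (S2) and 5.6 TPM (S3), Shmt1 at 96.8 (S1), 57.2 (S2) and 36.3 TPM (S3) and Sdsl at 7.8 (S1), 1.7 (S2) and 0.5 TPM (S3). Elsewhere Hao2, a peroxisomal oxidase, was at 168 (S1), 1785 (S2) and 1890 TPM (S3), and Asns, asparagine synthetase, at 3.3 (S1), 11.5 (S2) and 18.5 TPM (S3).

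Transcription factor motifs were looked for in the 59 promoter windows of the 51 genes with an entry, on both strands. GTTAATNAT, the opening letters of the consensus of HNF1, a regulator of proximal tubule genes, was found in 4 of them and in 0.801% of all windows. The protein of Pcbd1, 1 of the 4, is also known as the dimerization cofactor of HNF1. Prodh2, Got2 and Pcbd1 were among the 11 genes that stood above in S1, whereas Hoga1 was lowest there, by less than 2-fold. The 4 windows are shown because they set genes of unlike pattern side by side, with the match in capitals: Prodh2 (chr7:30493408-30493707, plus strand) as its reverse complement, Got2 (chr8:95888352-95888651, minus strand) as its reverse complement, Pcbd1 (chr10:61089081-61089380, plus strand) as spelled, Hoga1 (chr19:42045620-42045919, plus strand) as its reverse complement.
Prodh2: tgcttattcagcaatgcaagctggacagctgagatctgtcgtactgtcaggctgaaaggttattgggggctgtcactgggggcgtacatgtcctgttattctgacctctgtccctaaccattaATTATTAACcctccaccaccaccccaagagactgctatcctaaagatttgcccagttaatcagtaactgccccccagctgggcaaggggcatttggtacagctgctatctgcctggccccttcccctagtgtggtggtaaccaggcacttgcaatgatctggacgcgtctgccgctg
Got2: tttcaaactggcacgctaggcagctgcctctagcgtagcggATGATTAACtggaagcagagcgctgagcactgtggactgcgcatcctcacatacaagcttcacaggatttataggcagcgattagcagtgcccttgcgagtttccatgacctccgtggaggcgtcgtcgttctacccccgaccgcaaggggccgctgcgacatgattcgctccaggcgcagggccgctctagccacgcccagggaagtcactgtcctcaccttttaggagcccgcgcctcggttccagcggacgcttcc
Pcbd1: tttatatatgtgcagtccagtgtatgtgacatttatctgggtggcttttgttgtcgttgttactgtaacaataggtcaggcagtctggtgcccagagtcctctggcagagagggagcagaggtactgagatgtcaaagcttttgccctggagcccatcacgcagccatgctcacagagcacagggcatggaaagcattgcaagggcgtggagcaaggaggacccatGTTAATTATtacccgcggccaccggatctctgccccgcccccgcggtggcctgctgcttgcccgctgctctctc
Hoga1: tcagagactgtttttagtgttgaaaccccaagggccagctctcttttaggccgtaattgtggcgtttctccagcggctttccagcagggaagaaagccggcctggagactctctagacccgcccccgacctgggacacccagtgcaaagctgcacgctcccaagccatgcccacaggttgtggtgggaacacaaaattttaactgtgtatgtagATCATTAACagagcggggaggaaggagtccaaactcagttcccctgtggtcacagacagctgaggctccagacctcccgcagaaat
A match is only a run of letters. In all, 9 motifs were searched, chosen after the levels were known and after spellings over 9 letters had been tried. The number of GTTAATNAT matches is therefore no test, and a part of HNF1 in these levels was not tested. GTTAAT, which lies within GTTAATNAT, was in 10.2% of member windows and in 7.10% of all windows. The HNF4 spelling CAAAGTCCA was in 3.39% of member windows, both of Agxt2, against 0.475% of all, and CAAAGTTCA was in no member window and in 0.390% of all. TTATTTAC, a forkhead spelling, was in 1.69% of member windows and 1.12% of all, and TATAAA, the TATA box, in 11.9% and 13.6%. GGGCGG, the GC box, was in 47.5% of member windows and 35.7% of all, and CCAAT in 50.8% and 37.4%.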

How the data were processed

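The 43 labelled samples hold 19 RNA-seq libraries, all female, and 24 ATAC-seq libraries, which were not analysed here. Per the labels' protocols, cDNA was amplified in 10 to 12 PCR cycles (SMARTer V4 kit), made into Nextera XT libraries and read from both ends for 50 bases, with no molecular identifiers or strand marking named. Per the submitters' processing notes the build was mm10 and the tools included cutadapt, STAR and RSEM; the sources used here do not give versions, settings or annotation. The authors deposited TPM, 1 value per gene and segment, rounded to 1 decimal; how libraries were combined is not given. Columns summed to 999907 (S1), 999988 (S2) and 999911 (S3). The table's 5 other value columns fit no labelled RNA-seq sample and were left aside.

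From these values, differences of log2(TPM + 1) and ratios of TPM (both values at least 1) were computed with Python 3.11.15 and pandas 2.3.3. Genes of at least 1 TPM in at least 1 segment form the background, while all 58 members were counted whatever their level. With 1 value per segment no test was possible, and a 2-fold threshold was used. The calling step was run on simulated columns with set changes and little added noise. That checks the code only, not variation between libraries. The members, pathway lists, companion genes and markers were chosen with earlier results of these data known. Every member is named, as are companions whose segments differ 2-fold, except a few that are not reported here, and other companions where a member's step needs them. The pairs Bckdha and Bckdhb, Cth and Cbs, Haao and Acmsd, Gcsh and Gldc and Mccc1 and Mccc2, and the motifs, were chosen after the values were seen; motif spellings over 9 letters, tried first, are not shown. Where a symbol had 2 IDs (Gcat), the one with the higher mean was used. All 58 member IDs matched the reference names. Promoter sequences and coordinates are from RefSeq, GRCm38.p6. The cited alternatives changed the pseudocount, filter, scaling, gene set and threshold.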

Additional observations from a re-analysis of the deposited data

How the results depend on the processing

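No paired analysis was possible because the table holds 1 value per gene and segment, so single libraries could not be left out either. The alternative runs used pseudocounts of 0.1 and 10, no filter, a filter of 5 TPM, and thresholds of 1.5-fold and 4-fold. Others used quantile normalization, median-of-ratios scaling, or left out the abundant mitochondrially encoded genes, Gpx3 and Kap. Filters and thresholds leave a difference unchanged, and a pseudocount cannot change its sign. Median-of-ratios scaling and leaving out abundant genes rescale a whole segment, here too little to reverse a 2-fold difference. The sign of a 2-fold difference could thus change under quantile normalization only. Of the 174 differences of the 58 genes, none that passed the 2-fold threshold changed sign there. Some smaller differences did change sign, such as Cbs, S1 minus S3, from 0.01 to -0.05 under median-of-ratios scaling. Counts of members moved by over 1.5 times with the threshold alone. At 1.5-fold, 17 were higher for S1 against S2 (13.9% of all genes), 18 lower for S1 against S3 (22.5%) and 5 lower for S2 against S3 (5.60%). At 4-fold, S1 against S2 gave 3 higher (1.82%) and 8 lower (5.27%), S1 against S3 gave 11 higher (3.66%), and S2 against S3 gave 1 lower (0.361%). Calls were lost for Bckdha, S1 minus S3, under median-of-ratios scaling (0.97), a pseudocount of 10 (0.99) and without the abundant genes (1.00, just under 1), for Asl, S2 minus S3, under median-of-ratios scaling (0.97) and a pseudocount of 10 (0.87), for Pcbd1, S1 minus S2, under quantile normalization (0.96), and for Bcat1, S1 minus S2, under quantile normalization (-0.76) and a pseudocount of 10 (-0.25). A pseudocount of 10 also ended those of Hpd, S1 minus S3 (-0.72), Kynu, S1 minus S3 (0.35), and Bckdhb, S1 minus S2 (0.74). Calls were gained for Fah, S1 minus S3, under median-of-ratios scaling (-1.01) and, S1 minus S2, without the abundant genes (-1.001), and at a pseudocount of 0.1 for Agxt2, S1 minus S2 (1.01), Pycr1 (-1.17 for S1 minus S2 and S1 minus S3), Bhmt, S1 minus S3 (1.00), and Agxt, S2 minus S3 (1.00). The count over members of at least 20 TPM was chosen after seeing the data. Quantile normalization moved the median of all genes by 0.25 for S1 minus S2 and by -0.17 for S2 minus S3, and the median of the 58 genes for S1 minus S2 then came to 0.00, against 0.08 over all genes. The segment of the highest TPM changed for 8 genes under quantile normalization, 4 under median-of-ratios scaling and 6 without the abundant genes, among them Bhmt2, Fah, Cbs and Ivd. Depth is unknown, so whether levels under 1 TPM differ from 0 cannot be judged.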

Other observations

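Several genes best known from liver were at or near 0 in all 3 segments, while a related gene was expressed. The 10 genes Tat, Agxt, Tdo2, Mat1a, Hao1, Cps1, Otc, Arg1, Hal and Sds, put together after their values were seen, did not exceed 0.4 TPM in any segment. In 5 cases a related gene had its lowest or highest level in S1. Arg2 was at 0.2 (S1), 107 (S2) and 278 TPM (S3) beside Arg1, Mat2a at 162 (S1), 664 (S2) and 1087 TPM (S3) beside Mat1a, and Hao2 at 168 (S1), 1785 (S2) and 1890 TPM (S3) beside Hao1. Highest in S1 were Agxt2, at 70.6 (S1), 35.1 (S2) and 29.5 TPM (S3) beside Agxt, and Sdsl, at 7.8 (S1), 1.7 (S2) and 0.5 TPM (S3) beside Sds. Cps1 and Otc, which start the urea cycle, and Nags, which makes the activator of Cps1, did not exceed 0.5 TPM, whereas Ass1 and Asl reached 452 and 492 TPM in S1.

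Afmid overlaps Tk1 by 585 bases in the annotation, and both were ordered alike, with Afmid at 49.0 (S1), 26.4 (S2) and 1.8 TPM (S3) and Tk1 at 11.1 (S1), 6.0 (S2) and 2.2 TPM (S3). Whether reads of one were counted for the other was not tested.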
